A study of Mus musculus with 13 samples.

Results

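The claudins Cldn1, Cldn3, Cldn4, Cldn5, Cldn7 and Cldn8, occludin (Ocln), tricellulin (Marveld2) and the scaffold gene Tjp1 were read across mammary tumors and mammary glands of mice. These 9 genes were taken by name as the tight junction group, without a threshold on their values, and all 9 were found among the 15213 genes of the table. The 10 tumors came from 6 MMTV-tTA TetO-Tsg101 females, labelled MtTA Teto-TSG101wt, of which 3 gave 1 tumor, 2 gave 2 tumors and 1 gave 3 tumors. The 3 glands came from 3 wild-type FVB females without the transgenes. Age, reproductive stage and founder line are not given in the labels, and no doxycycline treatment is named for these samples. RNA of milk genes was high in the glands and lower in every tumor, so that the tumors were compared with glands rich in milk RNA. In the double transgenic mice, the tetracycline-controlled transactivator tTA is driven by the Mouse Mammary Tumor Virus promoter and switches on the TetO-Tsg101 transgene in the absence of doxycycline. The study describes this promoter as active in a mosaic pattern in luminal epithelial cells. Both kinds of tissue were whole pieces of frozen tissue, so that epithelium, fat, vessels and immune cells entered the same RNA.

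Tight junctions close the space between neighboring cells of an epithelium or endothelium. Claudins span the membrane and set how tight the seal is and which ions cross it. Occludin and tricellulin are membrane proteins with a MARVEL domain, tricellulin being placed where the corners of several cells meet, and ZO-1, the product of Tjp1, ties the junction to the actin cytoskeleton. In the mammary gland, tight junctions between alveolar cells become impermeable around the onset of lactation and keep milk apart from the blood. Low levels of CLDN3, CLDN4 and CLDN7 give the claudin-low class of breast cancer its name.

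The upstream sequences of 4 claudin genes are shown, those of Cldn1 and Cldn4, which were higher in the tumors, of Cldn5, which was lower, and of Cldn3, which is the neighbor of Cldn4 on chromosome 5 but did not pass the test. They end at the base before the annotated start of transcription and are written 5′ to 3′ on the strand of the gene, from RefSeq on GRCm38.p6 (mm10). Capitals mark 3 short motifs that were searched on both strands, namely CACCTG, the E-box read by the Snail and Zeb repressors, AACNNGTT, the core of the site of Grainyhead-like factors, and TGANTCA, the AP-1 site. The Cldn1 stretch is chr16:26371840-26372089 (minus strand), the Cldn3 stretch chr5:134985964-134986213 (plus strand), the Cldn4 stretch chr5:134946935-134947184 (minus strand) and the Cldn5 stretch chr16:18776597-18776846 (plus strand).
Cldn1: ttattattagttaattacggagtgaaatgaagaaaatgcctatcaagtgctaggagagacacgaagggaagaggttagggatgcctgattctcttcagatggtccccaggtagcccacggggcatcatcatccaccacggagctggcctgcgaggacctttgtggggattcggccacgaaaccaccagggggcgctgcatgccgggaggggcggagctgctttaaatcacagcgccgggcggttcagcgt
Cldn3: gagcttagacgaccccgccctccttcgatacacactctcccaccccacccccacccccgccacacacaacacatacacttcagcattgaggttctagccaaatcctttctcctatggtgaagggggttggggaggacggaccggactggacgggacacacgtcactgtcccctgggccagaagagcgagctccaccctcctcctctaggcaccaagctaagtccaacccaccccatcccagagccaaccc
Cldn4: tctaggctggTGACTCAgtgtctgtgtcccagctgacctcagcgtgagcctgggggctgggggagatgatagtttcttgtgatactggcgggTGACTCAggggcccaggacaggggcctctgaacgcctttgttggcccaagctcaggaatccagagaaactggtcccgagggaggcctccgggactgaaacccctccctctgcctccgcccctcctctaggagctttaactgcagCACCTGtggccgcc
Cldn5: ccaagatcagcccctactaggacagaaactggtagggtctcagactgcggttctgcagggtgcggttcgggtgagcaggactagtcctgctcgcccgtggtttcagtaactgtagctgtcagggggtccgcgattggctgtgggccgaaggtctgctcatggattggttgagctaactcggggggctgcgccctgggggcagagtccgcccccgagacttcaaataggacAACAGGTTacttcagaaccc
In the Cldn4 stretch, CACCTG began 14 bases before the start and TGACTCA began 240 and 158 bases before it. The Cldn5 stretch held AACAGGTT from 20 bases before the start, and no match shared bases with another. No match to the 3 motifs was found in the 250 bases before the start of Cldn1 or Cldn3. Among 32851 RefSeq promoters of the same length, 17.2% held CACCTG, 3.64% held AACNNGTT and 6.75% held TGANTCA. In total, 8 of the 9 genes had a promoter entry, in 11 entries, and CACCTG or its reverse complement CAGGTG was found in 3 of these, which belong to Cldn4, Cldn7 and Ocln. Cldn8 was not among the entries. A match describes the letters only. Cldn4 and Cldn3 lie 39.3 kb apart with 0 annotated genes wholly between them, and Ocln and Marveld2 lie 43.2 kb apart on chromosome 13.

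The levels are normalized cpm, which are reads scaled to the size of the library and to a normalization factor, as the authors deposited them. The tumors held between 6176269 and 16835397 reads and the glands between 11672487 and 23889042 reads. All 9 genes passed the filter on low values, with at least 43 reads of each in every tumor. Tsg101 itself was at 49.9, 63.4 and 101 normalized cpm in the lowest, median and highest tumor and at 45.6, 53.0 and 61.0 in the glands. The fitted difference was 0.30 on the log2 scale (adjusted p = 0.296, limma). The transgene carries the full-length mouse coding sequence, so its reads could be counted on Tsg101, and 6 of 10 tumors were above all glands. The level of Tsg101 RNA thus did not separate the labelled groups. By immunoblot, the paper reports more exogenous TSG101 protein in most tumors than in normal glands of double transgenic females. It also reports luciferase signal from the transgene in palpable tumors. These measures are unlike RNA of whole tissue. Gland 3 and tumors 1, 5 and 9 stood apart from the other libraries, with relatively more reads of genes poor in GC, and the correlation of their deviations with GC content across genes was between -0.46 and -0.33. The deviations of these 3 tumors also ran with those of gland 3 across genes, with correlations of 0.66 to 0.70. The labels name both UNMC and Novogene without assigning the libraries, so that a batch by site could not be placed and its part was not tested. Tumor 9 also held 27.4% of its reads on the ribosomal RNA precursor Rn45s. GC content was 42.3% in the Cldn1 transcript, 40.6% in Cldn8 and 42.0% in Ocln, and 62.7% in Cldn3 and 60.5% in Cldn5.

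Tumors and glands were compared with limma on log2(normalized cpm + 1), and a gene counted as higher or lower when it passed an FDR of 0.05 and changed by more than 2-fold. Of the 9 genes, 2 claudins were higher in the tumors (Cldn1 and Cldn4), 2 claudins were lower (Cldn5 and Cldn8), and 5 genes did not pass. Their median change was 0.12 on the log2 scale, beside 0.01 over the 11795 genes tested. Among all genes tested, 17.2% passed, namely 10.2% as higher (1204 genes) and 6.99% as lower (825 genes). This balance depended on the filter, without which 1603 genes were higher and 1538 lower, since 10 of the 13 libraries were tumors and a gene high in the glands alone could not pass. It also depended on the scaling, with 1864 genes higher and 495 lower in cpm without the normalization factor, 568 higher and 3461 lower after scaling to epithelial genes, and 10166 higher and 81 lower after scaling to endothelial genes. The names of the 9 genes were chosen with earlier results of these data known, so that the count of 4 genes is a description. Milk genes separated the groups, with sums of 1384 to 76623 normalized cpm in the tumors and 165034 to 305121 in the glands. The level of milk genes thus went with the group in each comparison of tumors and glands. The part of the secretory state of the glands in the changes was not tested.

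**Figure D1:**
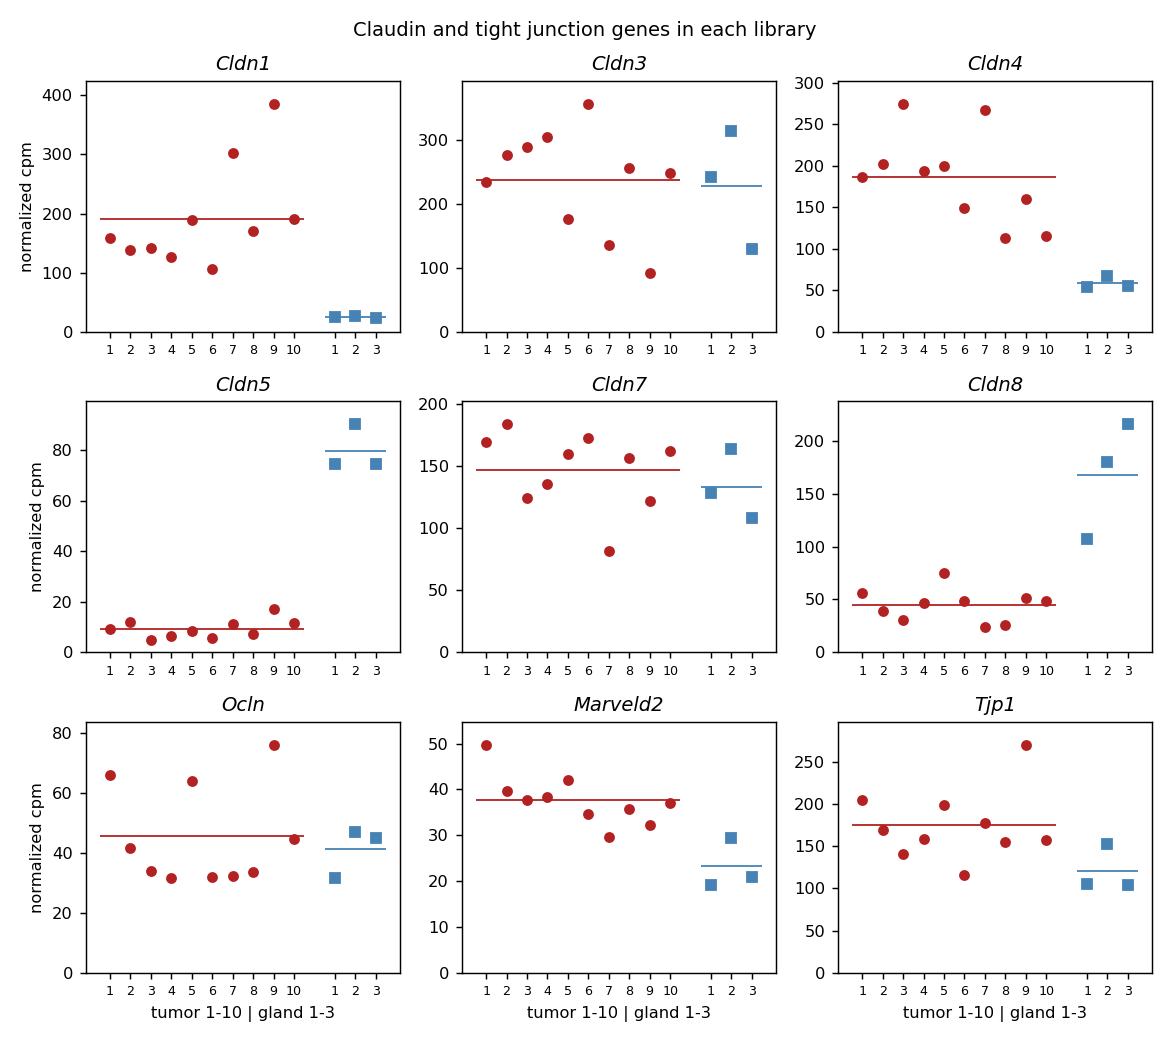
Normalized cpm (linear vertical axes from 0) of the 9 genes in each library, with tumors 1 to 10 as circles, glands 1 to 3 as squares and horizontal lines at the group means. All 10 tumors lie above the 3 glands for Cldn1, Cldn4 and Marveld2 and below them for Cldn5 and Cldn8, and the groups overlap for the other 4 genes.

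Cldn1 (Entrez 12737; chromosome 16, 26356645 to 26371839) had the largest rise of the 9 genes. It encodes a claudin that is needed for the water barrier of the epidermis. Its level was 107, 164 and 386 normalized cpm in the lowest, median and highest tumor, and 25.1, 27.5 and 22.7 normalized cpm in glands 1, 2 and 3. Every tumor was above every gland, and tumors 9 and 7, at 386 and 303, were the highest. The means were 191 ± 87.2 (SD, n = 10) and 25.1 ± 2.42 (SD, n = 3), a log2 fold change of 2.77 or 6.84-fold (standard error 0.32, 95% interval 2.10 to 3.45, adjusted p = 1.54e-05, limma). Over all genes tested, 10.7% had all 10 tumors above all 3 glands. Squamous markers moved in the same direction, with a summed level of 191 to 1732 normalized cpm in the tumors against 38.8 to 38.9 in the glands. Of the 8 markers, 6 were called higher when the filter was not applied, and none was at 0 in every tumor. Basal epithelial markers were divided, with Krt5, Krt14 and Trp63 called higher (2.82, 1.73 and 2.68 on the log2 scale) and the contractile genes Acta2 and Myh11 and the oxytocin receptor gene Oxtr called lower (-4.32, -5.05 and -4.52). Their sum ran from 718 to 2946 normalized cpm in the tumors and from 610 to 2036 in the glands, and none of the 6 was at 0 in every tumor. Tumor 9, the highest for Cldn1, had a squamous sum of 361, near the median of 354, and the lowest basal sum. Tumor 7, the second highest for Cldn1, had the highest of both sums. The part of squamous and basal cells in the level of Cldn1 was not tested. Without tumors 1, 5 and 9 and gland 3, the log2 fold change of Cldn1 was 2.55 (adjusted p = 0.000184, limma).

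Cldn4 (Entrez 12740; chromosome 5, 134945123 to 134946934) was the other claudin that was higher in the tumors. It belongs with Cldn3 to the claudins of glandular epithelia that bind the enterotoxin of Clostridium perfringens. The lowest, median and highest tumor held 113, 190 and 275 normalized cpm, against 54.5, 67.1 and 55.7 in the glands. The groups did not overlap, and tumors 3 and 7 were the highest while tumors 8 and 10 were the lowest. The mean level of the tumors was 186 ± 55.2 (SD, n = 10) and that of the glands 59.1 ± 6.97 (SD, n = 3), which gives a log2 fold change of 1.59 (standard error 0.26, 95% interval 1.04 to 2.13, adjusted p = 0.000301, limma). Tumors 3 and 7 also had the highest summed levels of squamous markers, at 900 and 1732 normalized cpm, and tumor 8 had the lowest, at 191. Other tumors did not follow this order. Tumor 10 had a squamous sum of 348, near the median of 354. Tumor 6, at a Cldn4 level of 149, had a sum of 400, and tumor 1, at a Cldn4 level of 186, had 262. The part of squamous cells in the level of Cldn4 was not tested.

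Cldn5 (Entrez 12741; chromosome 16, 18776847 to 18778262) had the largest fall. It is the main claudin of endothelial cells and of the blood-brain barrier. In the glands it was at 74.5, 90.2 and 74.6 normalized cpm, and in the tumors the lowest, median and highest levels were 4.83, 8.75 and 17.3. Every tumor was below every gland, and even tumor 9, the highest, was far below them. With means of 9.32 ± 3.79 (SD, n = 10) for tumors and 79.8 ± 9.07 (SD, n = 3) for glands, the log2 fold change was -3.05 (standard error 0.29, 95% interval -3.67 to -2.42, adjusted p = 3.19e-06, limma), or 8.26-fold lower. Over all genes tested, 8.53% had all 10 tumors below all 3 glands.

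Markers of endothelial cells were also lower in the tumors. Their sum ran from 85.0 to 193 normalized cpm in the tumors and from 319 to 687 in the glands. Of 10 endothelial markers, 8 were called lower, 9 had all tumors below all glands and none was at 0 in every tumor. Their log2 fold changes ran from -3.16 for Cdh5, the endothelial cadherin, to -0.46 for Flt1, a receptor of VEGF, with a median of -1.78. The fitted fall of Cldn5 was larger than that of 9 of these 10 genes. Per geometric mean of the 10 markers, Cldn5 was at 1.42, 1.70 and 3.05 in glands 1, 2 and 3, and at 0.448, 0.638 and 1.46 in the lowest, median and highest tumor. In 9 of 10 tumors this ratio was below all 3 glands, and tumor 9 lay just above gland 1. After scaling to the endothelial genes, the log2 fold change of Cldn5 was -1.33 (standard error 0.35, adjusted p = 0.00154, limma), while the median of all genes on this scale was 1.68. It ranged from -1.55 to -1.01 when single libraries were left out, the smallest change being that without gland 3, which held the highest ratio. On this scale, 86.2% of all genes tested were called higher and 0.687% lower. In bulk tissue, fewer endothelial cells and less RNA per endothelial cell cannot be told apart.

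**Figure D2:**
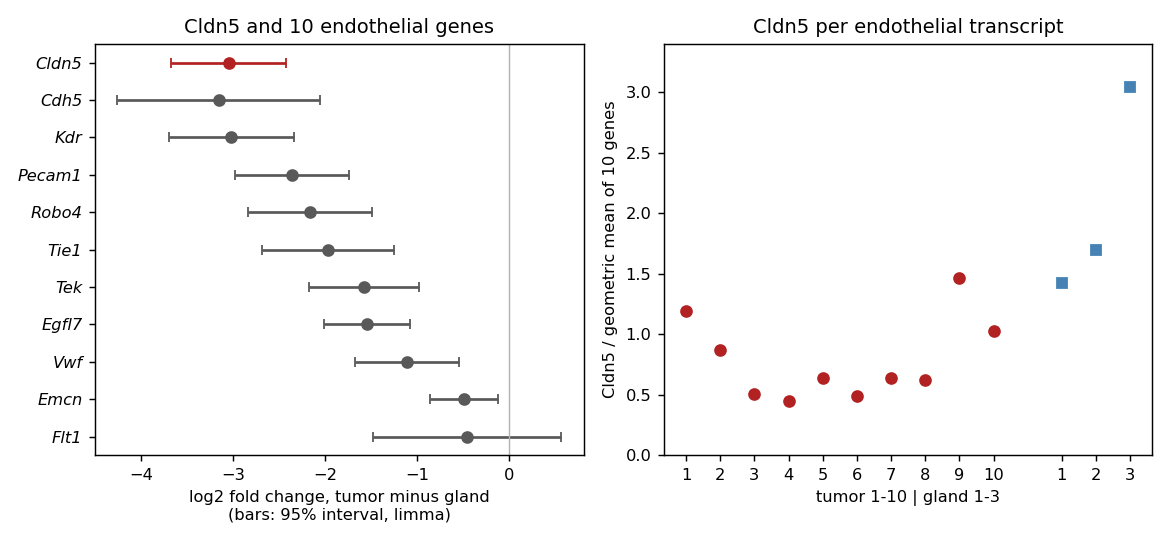
Left, log2 fold changes (tumor minus gland, bars are 95% intervals from limma) of Cldn5 and the 10 endothelial genes, where Cldn5 at -3.05 lies beside Cdh5 and Kdr. Right, the level of Cldn5 divided by the geometric mean of the 10 genes in each library, with tumors as circles and glands as squares, where the tumors lie between 0.448 and 1.46 and the glands between 1.42 and 3.05.

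Cldn8 (Entrez 54420; chromosome 16, 88560826 to 88563183) was the other claudin that was lower. It is a claudin of tight epithelia such as the collecting duct of the kidney, where it takes part in the passage of chloride between cells. The glands were at 107, 180 and 216 normalized cpm, and the lowest, median and highest tumor at 24.3, 47.6 and 75.3. No tumor reached the level of a gland, tumor 5 being the highest and tumors 7 and 8 the lowest. Tumors 1, 5 and 9, which stood apart by GC content, were the 3 highest tumors, at 51.0 to 75.3, and gland 3 was the highest gland. The means of 44.7 ± 15.4 (SD, n = 10) and 168 ± 55.4 (SD, n = 3) gave a log2 fold change of -1.90 (standard error 0.31, 95% interval -2.56 to -1.24, adjusted p = 0.000319, limma). Without these 4 libraries it was -1.90 (adjusted p = 0.000871, limma). Milk genes moved with the groups, since all 7 markers were called lower and their sum ran from 1384 to 76623 normalized cpm in the tumors and reached 165034 to 305121 in the glands. None of the 7 was at 0 in every tumor, and their part in the level of Cldn8 was not tested.

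Cldn3 and Cldn7, with Cldn4 the genes behind the name claudin-low, did not differ detectably between the groups. Cldn3 was at 91.7, 253 and 357 normalized cpm in the lowest, median and highest tumor and at 242, 315 and 129 in the glands. The range of the tumors covered that of the glands, with tumor 9 lowest among the tumors and gland 3 lowest among the glands. The log2 fold change of Cldn3 was 0.05 with a 95% interval from -0.74 to 0.84 (adjusted p = 0.938, limma). Cldn7, which encodes a claudin of simple epithelia, was at 81.7, 159 and 184 normalized cpm in the lowest, median and highest tumor and at 128, 164 and 108 in the glands. Tumor 7 was the lowest, and 3 tumors were above all glands. The log2 fold change of Cldn7 was 0.12 with a 95% interval from -0.35 to 0.60 (adjusted p = 0.723, limma).

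Among the MARVEL proteins and the scaffold, no gene passed both limits. Occludin (Ocln) was at 31.7, 37.7 and 76.0 normalized cpm in the lowest, median and highest tumor and at 31.6, 46.8 and 45.0 in the glands. Tumors 1, 5 and 9, at 63.9 to 76.0, were above all glands, and the other 7 tumors lay between 31.7 and 44.6. Its log2 fold change was 0.09 (95% interval -0.52 to 0.69, adjusted p = 0.851, limma). The tricellulin gene Marveld2 was at 29.6, 37.4 and 49.7 normalized cpm in the lowest, median and highest tumor and at 19.2, 29.5 and 21.0 in the glands. All tumors were above all glands, although tumor 7, at 29.6, and gland 2, at 29.5, were nearly equal. The log2 fold change of Marveld2 was 0.69 (standard error 0.17, 95% interval 0.33 to 1.04, adjusted p = 0.00635, limma), which is past the FDR but under 2-fold. Over all genes tested, 27.8% were past the FDR at any fold. Tjp1 was at 116, 164 and 271 normalized cpm in the lowest, median and highest tumor and at 105, 153 and 104 in the glands, with 8 tumors above all glands. Its log2 fold change of 0.53 (95% interval 0.06 to 0.99) missed the FDR (adjusted p = 0.0908, limma). Without tumors 1, 5 and 9 and gland 3, it was 0.27 (adjusted p = 0.299, limma).

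Since the glands held fat and other tissue, the levels were also set against 6 epithelial genes, the adhesion genes Epcam and Cdh1 and the keratin genes Krt8, Krt18, Krt19 and Krt7. Summed, these were at 1655 to 2318 normalized cpm in the tumors and 951 to 2174 in the glands. Of the 6, only Krt7 was called higher and none was at 0 in every tumor, so that epithelial RNA was found in each tumor. Adipocyte markers were lower in the tumors, with sums of 12.1 to 387 normalized cpm against 3259 to 10875, and all 7 were called lower when the filter was not applied. So were 7 of 8 lymphocyte markers, with sums of 11.53 to 96.7 normalized cpm in the tumors and 28.3 to 525 in the glands. On the epithelial scale the median of all genes was -0.72, and 4.82% of all genes tested were called higher and 29.3% lower. Cldn1 kept a log2 fold change of 2.04 at an adjusted p of 0.00141 (limma) on this scale, Cldn5 of -3.77 (adjusted p = 6.37e-06, limma) and Cldn8 of -2.65 (adjusted p = 0.000103, limma). The log2 fold change of Cldn4 was 0.84 (adjusted p = 0.0234, limma), under 2-fold, and it exceeded the median of all genes by 1.55. Without gland 3 it was 1.12 (adjusted p = 0.0102, limma) and passed both limits.

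Per geometric mean of the epithelial genes, Cldn3 was at 1.38, 1.25 and 1.20 in glands 1, 2 and 3 and at 0.448, 0.896 and 1.04 in the lowest, median and highest tumor. All 10 tumors were below the 3 glands on this scale, with a log2 fold change of -0.70 at an adjusted p of 0.0306 (limma). Cldn7 was likewise lower in each tumor, at 0.311 to 0.626 against 0.652 to 1.00 in the glands, with a log2 fold change of -0.63 at an adjusted p of 0.0466 (limma). Both changes were under 2-fold and within 0.1 of the median of all genes on this scale, and with Epcam and Cdh1 alone as the scale neither passed the FDR (adjusted p = 0.0995 for Cldn3 and 0.0926 for Cldn7, limma). Ocln, Marveld2 and Tjp1 had log2 fold changes of -0.65, -0.05 and -0.23 per epithelial gene and did not pass (adjusted p = 0.179, 0.870 and 0.573, limma).

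**Figure D3:**
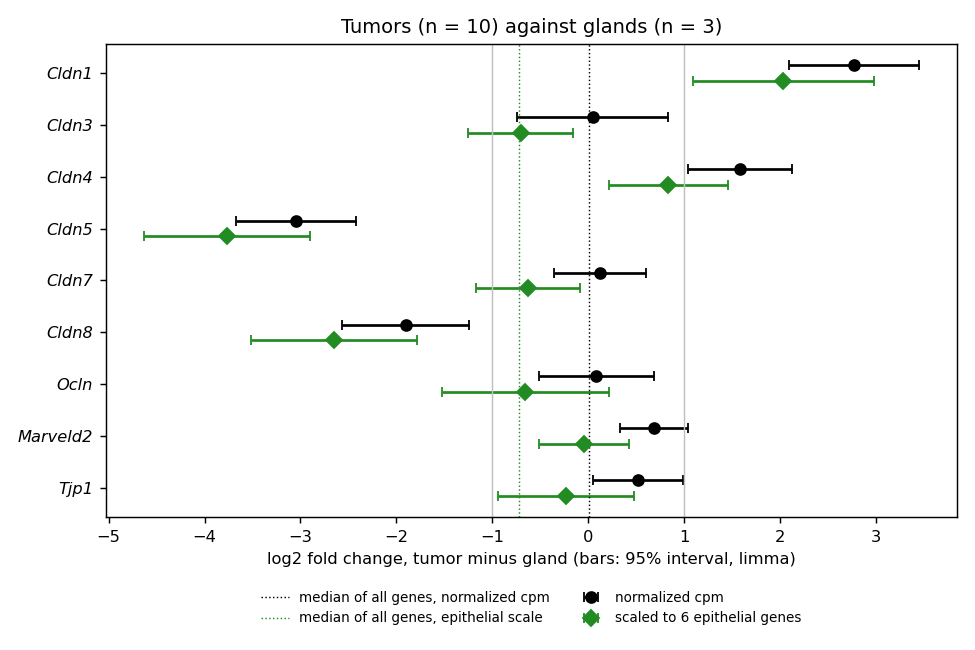
Log2 fold changes of the 9 genes, tumor minus gland, with 95% intervals from limma, in normalized cpm (circles) and after scaling each library to the 6 epithelial genes (diamonds). Dotted lines mark the median of all genes on each scale (0.01 and -0.72), and grey lines mark 2-fold. Cldn1, Cldn5 and Cldn8 lie beyond 2-fold on both scales and Cldn4 on the first only.

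To compare levels between genes, normalized cpm was divided by the exon length of each gene in kb. In the tumors, Cldn3 was the most abundant of the 9 genes at 189 ± 64.3 cpm per kb (SD, n = 10), followed by Cldn4 at 102 ± 30.4 and Cldn7 at 99.5 ± 20.9, which changed places between tumors (Cldn4 above Cldn7 in 5 of 10). Cldn1 came next at 58.9 ± 26.8 and was above Tjp1, at 24.6 ± 5.98, in 10 of 10 tumors. Cldn8 followed at 19.0 ± 6.53, Marveld2 at 11.1 ± 1.64 and Ocln at 10.8 ± 3.98, and Cldn5 was the lowest at 6.58 ± 2.67. Marveld2 and Ocln did not differ beyond their spread. In the glands, Cldn3 was again the most abundant at 182 ± 74.4 cpm per kb (SD, n = 3), above Cldn7 at 90.4 ± 19.1 in 3 of 3. Cldn8 at 71.1 ± 23.5 and Cldn5 at 56.3 ± 6.41 ranked ahead of Cldn4 at 32.5 ± 3.84 there. Cldn1, at 7.73 ± 0.746, and Marveld2, at 6.86 ± 1.63, were the lowest in the glands and overlapped.

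The summed level of the 6 claudins was close between the groups, at 475 ± 48.3 cpm per kb in the tumors (SD, n = 10) and 440 ± 96.8 in the glands (SD, n = 3). The shares of the 6 genes in it are given as ranges over the libraries and were not tested. Cldn1 made up 6.09% to 30.0% of this sum in the tumors and 1.55% to 1.95% in the glands. For Cldn4, the share was 13.9% to 34.9% in the tumors, above the 6.76% to 8.57% of the glands in each tumor. The share of Cldn5 was 11.7% to 14.7% in the glands and 0.649% to 3.09% in the tumors, and that of Cldn8 was 10.95% to 25.6% in the glands, gland 3 being the highest, and 2.45% to 7.03% in the tumors. Cldn3 held 18.4% to 52.5% in the tumors and 28.7% to 46.3% in the glands, and Cldn7 13.1% to 24.1% and 20.3% to 21.0%. In tumor 9, Cldn1 had the largest share of the 6 claudins, at 30.0%, ahead of Cldn3 at 18.4%, and in tumor 7 Cldn4 had the largest, at 34.9%. In the other 8 tumors and in the 3 glands, Cldn3 had the largest share.

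**Figure D4:**
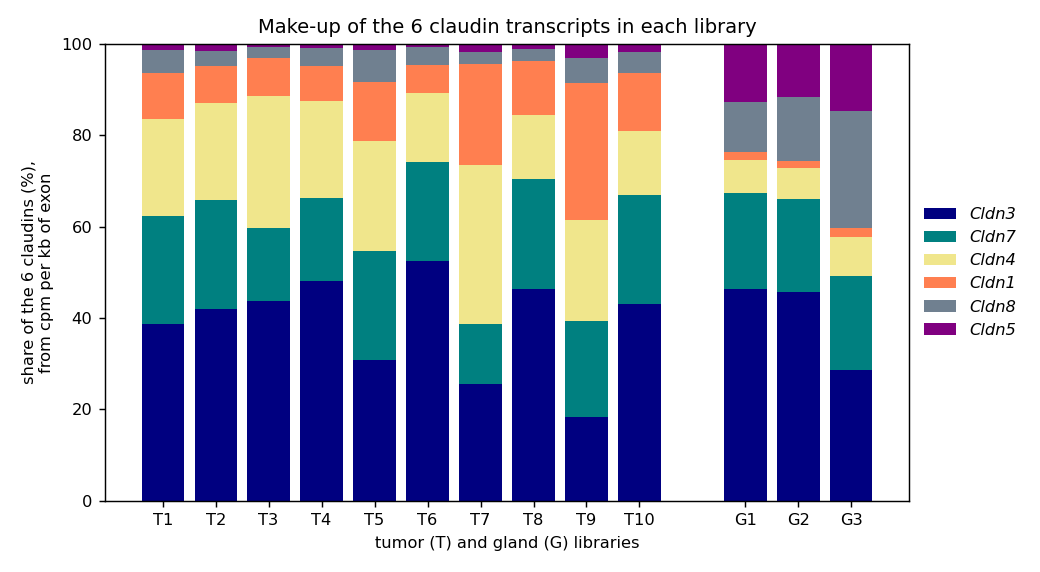
Share (%) of each of the 6 claudins in their summed cpm per kb of exon, in tumors 1 to 10 (T) and glands 1 to 3 (G). Cldn5 and Cldn8 take wider bands in the glands, and Cldn1 and Cldn4 take wider bands in the tumors, widest in tumor 9 for Cldn1 (30.0%) and in tumor 7 for Cldn4 (34.9%).

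Within the tumors, the coefficient of variation was 45.6% for Cldn1 and 14.7% for Marveld2, the highest and the lowest of the 9 genes. Which claudin varied most depended on the measure, since the SD on the log2 scale was 0.60 for Cldn3, 0.57 for Cldn1 and 0.51 for Cldn5, and after correction for GC content and length 0.53, 0.48 and 0.59. Marveld2 had the lowest SD on both, at 0.20. Cldn3 had the widest ratio of highest to lowest tumor, 3.90-fold, before that correction. Tumors of the same mouse differed as well. For Cldn3, the highest exceeded the lowest by between 1.05-fold (tumors 2 and 3) and 2.80-fold (tumors 8, 9 and 10) in the 3 mice with several tumors, and the SD on the log2 scale was 0.69 within mice and 0.60 over all 10 tumors. The mice with 2.03-fold and 2.80-fold each held a tumor that stood apart by GC content (tumors 5 and 9), which was the lowest of its mouse for the GC-rich Cldn3, and the part of base composition in these ratios was not tested. Cldn4 varied less within mice, by 1.34-fold to 1.42-fold, with an SD of 0.29 within mice and 0.44 over all tumors.

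Cldn1 and Cldn3 ran in opposite directions over the tumors. Tumors 9 and 7 were the highest for Cldn1 and the lowest for Cldn3, and tumor 6 was the lowest for Cldn1 and the highest for Cldn3. As a description over 10 tumors of 6 mice, the Pearson correlation of their log2 levels was -0.97 and the Spearman correlation -0.93, the most negative of the 36 pairs among the 9 genes. It was -0.86 over 8 tumors without tumors 7 and 9, and -0.91 after each library was corrected for GC content and transcript length. The tumors share mice, depth and base composition as sources of variation, and the pair was picked after its values were seen. For Cldn3 and Cldn4, the neighbors on chromosome 5, the Pearson correlation over the same tumors was -0.14.

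The genes with the pattern most like each claudin over the tumors were listed as a description, by the Pearson correlation of log2 levels over the 10 tumors among all genes tested. For Cldn4 these were Acod1 (0.98), the transcription factor gene Grhl3 (0.95) and the protease gene Prss27 (0.93). Cldn1 was most like Rnf227 (0.97), Dse (0.95) and Tmem159 (0.95), and Cldn3 most like Dclre1a (0.98), Prmt5 (0.97) and Prodh (0.96). Cldn5 was most like Kcne3 (0.95), Mest (0.92) and Gpihbp1 (0.92), the last of which encodes a protein of capillary endothelium. Cldn7 followed Rnf5 (0.95) and Nrep (0.94), and Cldn8 followed Flvcr1 (0.87), Wfdc18 (0.86) and Slc25a16 (0.85). Ocln was closest to Sertad3 (0.99), Gm21399 (0.99) and Psma1 (0.98), Marveld2 to Gm1818 (0.92), 9330133O14Rik (0.92) and Ncbp2 (0.91), and Tjp1 to Serpinb6a (0.98) and Cd302 (0.97). These were among the highest of many correlations over the same 10 tumors, so that their size is partly set by that choice, and no p is given.

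Of 53 other tight junction genes on a list, 41 were in the table and 36 passed the filter, with 4 called higher and 4 called lower, beside 10.2% and 6.99% of all genes tested. Genes such as Cldn2 and Cldn9 passed the filter through the tumors alone, and without the filter 4 of the 41 genes were higher and 6 lower. Over the 41 genes the median log2 fold change was -0.003, beside 0.01 over all 15213 genes without the filter. The other claudins stood out by Cldn2, a claudin that forms pores for cations in leaky epithelia. Cldn2 was at 15.4, 26.8 and 38.7 normalized cpm in the lowest, median and highest tumor and had 0 reads in each of the 3 glands, where 3 reads, the limit that a count of 0 allows, would be 0.128 to 0.366 normalized cpm. This is at least 121-fold higher in the tumors against a floor of 3 reads per gland (adjusted p = 1.16e-08, limma), and the fitted log2 fold change of 4.71 is smaller because 1 was added to each value. Cldn9 was at 7.08 ± 2.70 normalized cpm in tumors (SD, n = 10) and at 0.256 ± 0.0490 in glands (SD, n = 3), and its fitted log2 fold change was 2.62 at an adjusted p of 6.00e-06 (limma), which the added 1 keeps below the 27.7-fold ratio of the means. Cldn23 was at 10.2 ± 2.97 and 2.98 ± 0.649, and its log2 fold change of 1.46, at an adjusted p of 0.000386 (limma), was under 2-fold on the epithelial scale (0.85). Cldn12 did not pass, at a log2 fold change of 0.04. Cldn15, which the filter left out, was at 0.562 to 2.28 normalized cpm in the tumors and 15.4 to 22.1 in the glands. Fitted without the filter, its difference was -3.03 on the log2 scale (adjusted p = 5.0e-07, limma), and 10.1% of all genes were called lower in that fit.

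The JAM and CAR family, adhesion proteins of the immunoglobulin type at cell junctions, was divided. Cxadr, the receptor of coxsackievirus and adenovirus, rose from 58.1 ± 16.4 normalized cpm in the glands (SD, n = 3) to 224 ± 64.5 in the tumors (SD, n = 10), with a log2 fold change of 1.92 at an adjusted p of 3.89e-05 (limma). Jam2, Esam and Clmp fell, by 2.02, 1.90 and 1.43 on the log2 scale (adjusted p = 0.000469, 1.37e-05 and 0.00137, limma). Jam3 was left out by the filter and changed by -1.51 on the log2 scale in the fit without it, at an adjusted p of 0.000311 (limma). Jam2 and Esam are known from endothelium, and after scaling to the endothelial genes their log2 fold changes were -0.38 and -0.17 (adjusted p = 0.374 and 0.511, limma). Both lay below the median of all genes on that scale, 1.68, where 86.2% of all genes tested were called higher. The part of endothelial cells in their fall was not tested. F11r, the epithelial member, did not pass, at a log2 fold change of 0.25. Of 13 scaffolds that passed the filter, Tjp3 was called lower by limma, while edgeR and DESeq2 called 4 lower each and 8 were lower on the epithelial scale. Over all 11795 genes tested, edgeR called 952 lower and DESeq2 940. On the epithelial scale 29.3% of all genes tested were called lower and their median was -0.72. Tjp3 had a log2 fold change of -1.23 at an adjusted p of 0.00882 (limma), and this call was lost without gland 1 (-1.14, adjusted p = 0.0533), without gland 2 (-0.92, adjusted p = 0.0799) and in cpm without the normalization factor (-0.90, adjusted p = 0.118). Without gland 3, the count of other tight junction genes called lower was 10. Lower calls over all genes also rose in that fit, to 1123 of 11873 tested, against 825 of 11795 with every library. Of 3 other MARVEL and tricellular genes that passed the filter, none was called by limma, edgeR or DESeq2, with 1 higher and 0 lower at an unadjusted p under 0.05 in limma. None of the 10 polarity genes was called by limma, edgeR or DESeq2, where 2 were higher and 1 was lower at an unadjusted p under 0.05 in limma. These 3 also passed the FDR but changed by less than 2-fold, namely Crb3 (0.73 on the log2 scale, adjusted p = 0.00987, limma) and Pard6g (0.68, adjusted p = 0.00759), with all tumors above all glands, and Pard6b (-0.84, adjusted p = 0.0207).

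Of 16 listed regulators, 12 passed the filter, 4 were called higher and 2 lower, beside 10.2% and 6.99% of all genes tested, and without the filter 4 of the 16 were higher and 3 lower. Grhl3, a Grainyhead-like factor of stratified epithelium, was at 6.67, 12.9 and 33.9 normalized cpm in the lowest, median and highest tumor and at 0.155 to 0.366 in the glands, with a log2 fold change of 3.57 at an adjusted p of 8.31e-06 (limma), which the added 1 understates at such low gland levels. Like Cldn2 and Cldn9, Grhl3 passed the filter through the tumors alone. Klf4, a factor of epidermal differentiation, reached 112 ± 54.7 normalized cpm in tumors (SD, n = 10) against 17.4 ± 2.95 in glands (SD, n = 3), and its log2 fold change was 2.48 (adjusted p = 0.000175, limma). Ovol1 and Elf3 were called higher at 1.56 and 1.23 on the log2 scale, with adjusted p = 0.0200 and 0.00658 (limma). Elf5, a factor of alveolar differentiation, fell by 1.68 on the log2 scale (adjusted p = 0.0251, limma). With 2 glands left, Ovol1 missed the FDR without gland 1 (1.49, adjusted p = 0.0829) or gland 3 (1.38, adjusted p = 0.0645), and Elf5 without gland 1 (-1.67, adjusted p = 0.0859) or gland 2 (-1.45, adjusted p = 0.123). Elf3 was under 2-fold without gland 3, at 0.85, and on the epithelial scale, at 0.54, where Ovol1 was at 0.87 and missed the FDR as well (adjusted p = 0.0879). Zeb1, a repressor of epithelial junction genes that is also expressed in stroma, was at 3.64 to 8.81 normalized cpm in the tumors and 17.7 to 27.5 in the glands, with a log2 fold change of -1.89 at an adjusted p of 6.03e-05 (limma). Twist1, left out by the filter, had a log2 fold change of -1.85 without it (adjusted p = 0.00154, limma). The repressor Snai2 did not pass (0.69, adjusted p = 0.0792, limma).

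**Figure D5:**
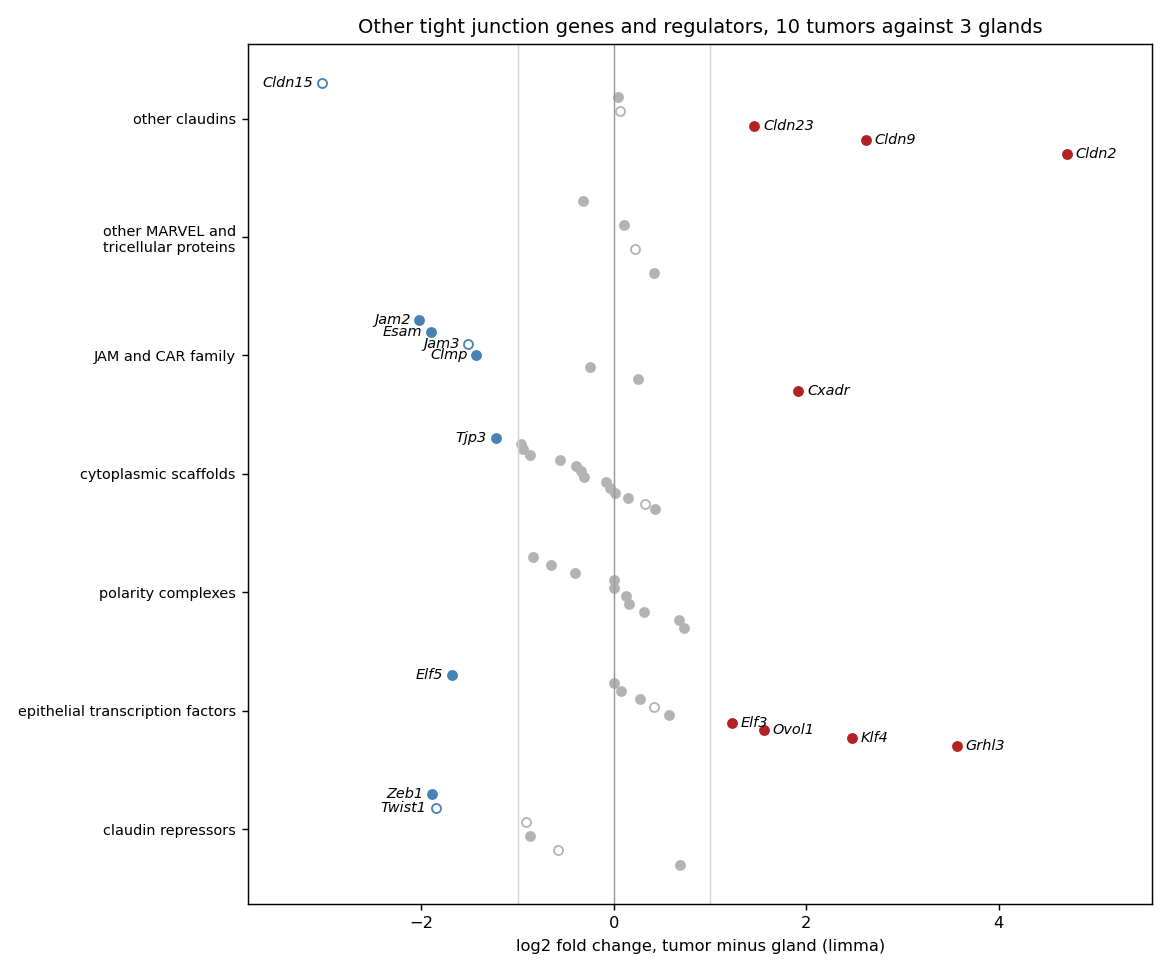
Log2 fold changes (tumor minus gland, limma) of 41 other tight junction genes and 16 regulators, in rows by class. Named points passed the FDR and 2-fold limits (right, higher in tumors; left, lower), grey points did not, and open points were left out by the filter and come from the fit without it. On this scale of log2(normalized cpm + 1), which understates changes of genes near 0, Cldn2 at 4.71 and Grhl3 at 3.57 are farthest to the right and Cldn15 at -3.03 farthest to the left.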

How the data were processed

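RNA of 10 tumors and 3 glands was sequenced. Per the paper's methods and the labels, the authors mapped paired-end reads to mm10 with Rsubread, counted them with featureCounts and normalized them with edgeR. The deposited signal values are read counts scaled to the library size and to a normalization factor of each library (normalized cpm). In every library 100% of the values were whole multiples (within 0.01) of the value of 1 read, and reads were recovered on that basis. Counting strand is not given in the sources used here.

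Values were compared with limma 3.58.1 (trend; R 4.3.3) on log2(value + 1), two-sided, with Benjamini-Hochberg adjustment over 11795 genes. The 3418 genes at 5 or less in the majority of libraries were left out, and those on a list were taken from the fit without this filter. Calls needed an FDR of 0.05 and more than 2-fold. The 10 tumors came from 6 mice, and p-values measure the spread between these samples. Alternatives included edgeR 4.0.16 and DESeq2 1.42.0 on the recovered reads, other pseudocounts, scalings, mouse means and omission of each library. The 95% intervals are those of limma and rest on the spread between libraries, while floors of 3 reads cover counting error only. The fits were tested on simulated data.

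The members and lists were chosen with earlier results of these data known. Named genes are all members, of the other lists the 5 largest rises and 5 largest falls among those called, and the 3 genes most like each member, of which some are not reported here. Cldn12, F11r, Snai2, Cldn15, Jam3, Twist1, Crb3, Pard6g, Pard6b and the basal markers were added by name after their values were seen. Coordinates and promoters are from RefSeq (GRCm38.p6) and exon lengths from GENCODE vM21. 12 listed claudins were not analysed here.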

Additional observations from a re-analysis of the deposited data

How the results depend on the processing

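Cldn1 and Cldn5 kept their direction and call under all 27 alternatives, with log2 fold changes of 2.04 to 4.47 and -3.77 to -1.33, and Cldn4 and Cldn8 under 25 of 27 each. The call of Cldn4 was lost on the epithelial scale (0.84) and with a replicate block (1.87, adjusted p = 0.0548, limma), and that of Cldn8 on the endothelial scale (-0.14) and with the block (-1.96, adjusted p = 0.0954). Marveld2 passed both limits in cpm without the normalization factor (1.00), where the median of all genes was 0.33 instead of 0.01. When each library was left out in turn, 2 members stayed higher and 2 lower. The calls of the 4 claudins held with mouse means, with tumors of the same mouse as correlated (consensus correlation 0.0477) and, as alternatives chosen after seeing the data, after correction for GC content and length and without tumors 1, 5 and 9 and gland 3.

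Without the filter on low values, 1603 genes were higher and 1538 lower. In cpm without the normalization factor, 1864 genes were higher, 495 were lower, and 1 regulator was lower. On the epithelial scale, 568 genes were higher and 3461 lower, with 1 member higher, 15 other tight junction genes lower and 2 regulators higher. On the endothelial scale, 10166 genes were higher and 81 lower, with 7 members, 27 other tight junction genes and 9 regulators higher, 1 member lower and 0 genes lower on the other lists (limma, also 0 at an unadjusted p under 0.05, and in the plain comparison edgeR and DESeq2 called 7 tight junction genes and 2 regulators lower). Clmp, Tjp3 and Elf5 were at 0.21, 0.54 and 0.10 on that scale, still below the median of all genes there, 1.68. Of the other tight junction genes, edgeR and DESeq2 called 7 lower each, and 8 were lower without tumors 1, 5 and 9 and gland 3. Over all genes, lower calls were 952 with edgeR, 940 with DESeq2 and 917 without those libraries, against 825 in the main fit. Omission of single libraries gave 3 to 10 other tight junction genes lower, 2 to 4 regulators higher and 1 to 2 lower, and 1 to 2 members higher on the epithelial scale. Over all genes in normalized cpm, it gave 1003 to 1537 higher and 658 to 1123 lower.

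Replicate numbers are shared between the groups but do not pair the samples, since tumors and glands came from different mice. Deviations of same-numbered samples, taken within each group, had correlations of -0.58, 0.04 and -0.66. These also carry the split by GC content, so they cannot test pairing. With the replicate block, in which tumors 4 to 10 have no gland of their number, 362 genes were higher and 182 lower, with 1 member higher and 1 lower, 2 other tight junction genes higher and 2 lower, and 2 regulators higher and 1 lower. No member's lowest or highest tumor stood apart from the other tumors by Dixon's test. Depth was lowest in tumors 9 and 10, and the 3 glands limit every comparison.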
